A study of Mus musculus with 9 samples.

Results

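Macrophages that received the TLR4 inhibitor and then tenascin-C (TNC) were set against macrophages left untreated, which asks what remained different from the untreated state when TNC was given behind a block of TLR4, a receptor it can activate. The rule took the 3 TNC + TLR4i arrays and the 3 untreated arrays, 6 of the 9 arrays in the series. Every probe set that is not an array control entered the test, 45037 of 45101, and 18193 genes were read from them, each by its brightest probe set.

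TNC is an extracellular matrix glycoprotein that rises in injured, inflamed and tumour tissue, and TLR4 is the receptor through which macrophages sense bacterial lipopolysaccharide and several matrix proteins. The study examined how TNC acts on macrophages. All cells were bone marrow-derived macrophages of BALB/c mice aged 8 to 10 weeks, grown for 7 days in M-CSF, the growth factor that drives macrophage differentiation, and kept overnight in 1% serum. The TNC + TLR4i cells received TAK-242, which binds the intracellular part of TLR4, at 3 µM for 1 h and then 2 µg/ml recombinant TNC for 6 h. The untreated cells had the same culture, and the sources used here name no solvent or protein added to them. The remaining 3 arrays, TNC + vehicle, came from cells given 0.1% DMSO for 1 h and then the same TNC for 6 h. No array held cells given the inhibitor alone or DMSO alone, so the comparison changed TNC and inhibitor together and their parts cannot be told apart. The labels call the arrays biological replicates without naming the mice, so the p-values measure the spread between these arrays, which may be partly technical.

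Values are log2 expression from the robust multi-array average (RMA). A log2 change is the mean of the TNC + TLR4i arrays minus the mean of the untreated arrays. A gene was called when limma's moderated test gave a Benjamini-Hochberg adjusted p under 0.05 and the change was at least 1.5-fold. The array medians lay between 6.72 and 6.74, and the correlation across all probe sets between an untreated and a TNC + TLR4i array was 0.994 to 0.996, against 0.995 to 0.996 within the untreated group. The cells carried the labelled identity. Csf1r, the M-CSF receptor, stood at 14.14 to 14.17 in the untreated arrays and 14.07 to 14.12 in the TNC + TLR4i arrays, and the macrophage enzyme Lyz2 stood at 14.53 to 14.57 over both groups. None of the 11 measured macrophage markers was called, and none of the markers of 10 other cell types was. Of the macrophage markers 9 had a log2 change below 0 and 2 above, and 5 were lower at limma's unadjusted p under 0.05. Over all genes 45.8% lay below 0 and 842 of 18193 were lower at that p. Some stromal markers were far above the array median in both groups, such as the collagen gene Col1a2 at 13.16 to 13.37, with a log2 change of -0.00 (95% CI -0.16 to 0.15). TNC + vehicle replicate 1 stood apart in endothelial markers, with a median of 0.95 above the untreated mean over 12 genes against 0.03 and 0.06 in the other arrays of its group. Direct differences from that group were also computed without it, and none printed here changed its side of the threshold. In bulk RNA of this kind, fewer cells of a type and less RNA per cell cannot be told apart.

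A small set of genes differed. In the TNC + TLR4i arrays 11 genes were higher, 0.0605% of the genes measured, and 36 were lower, 0.198%. By adjusted p alone, with no minimum fold, 54 genes were higher (0.297%) and 92 lower (0.506%), and 99 of these 146 changed by less than 1.5-fold. The median log2 change over all genes was 0.01 and the median standard error (SE) was 0.07. At an unadjusted p under 0.05 there were 1721 genes. Each of the 47 called genes had 3 TNC + TLR4i values outside the range of the 3 untreated values, as did 15.2% of all genes in either direction. Only 2 of the rises and 6 of the falls reached 2-fold. Under limma's treat test, which asks for a change beyond 1.5-fold itself, 1 gene passed.

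**Figure D1:**
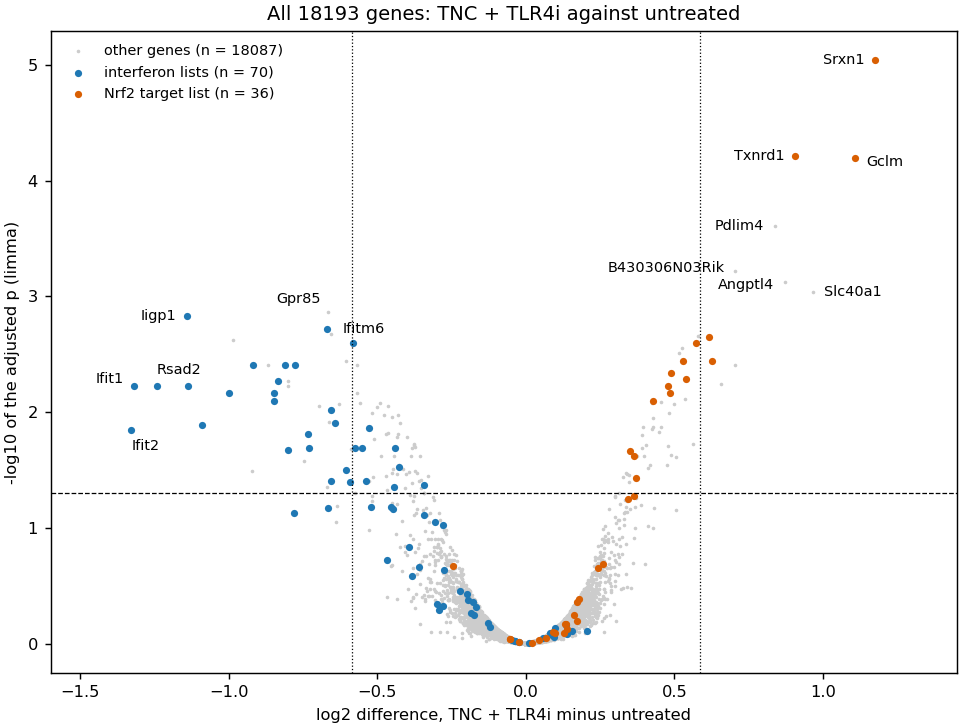
Each point is one of 18193 genes, with the log2 change (TNC + TLR4i minus untreated) on the x axis and minus log10 of limma's adjusted p on the y axis, and members of the Nrf2 target list are orange and members of the interferon lists blue. The called genes on the right hold 5 Nrf2 targets among 11, and those on the left hold 22 interferon-list members among 36.

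The rises are described first. Nrf2 is a transcription factor that Keap1 holds at low levels until electrophiles or oxidants modify Keap1. Nrf2 then pairs with small Maf proteins on antioxidant response elements in DNA and switches on genes for glutathione and thioredoxin metabolism, NADPH supply, quinone and haem breakdown and drug export. Of 36 measured genes on the list of Nrf2 targets, 5 were called higher and none lower, beside 11 of 18193 over all genes. By adjusted p alone 15 were higher and none lower, beside 0.297% higher over all genes. The median log2 change of the list was 0.25, against 0.01 over all genes. Of the 36, 32 lay above 0, beside 9866 of 18193 over all genes. The list was chosen with earlier results of these data known, so these counts are a description and not a test.

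The largest rise was in Srxn1, sulfiredoxin, which restores overoxidised peroxiredoxins. Its log2 expression was 8.43, 8.44 and 8.45 in the untreated arrays and 9.66, 9.65 and 9.54 in the TNC + TLR4i arrays. The lowest inhibitor array stood more than 1 log2 unit above every untreated array, and the change was 1.18 (SE 0.06, 2.26-fold, limma adjusted p = 9.13e-06). Srxn1 was the gene that passed the treat test. Gclm, the modifier subunit of the enzyme that limits glutathione synthesis, read 9.50, 9.39 and 9.31 untreated and 10.58, 10.60 and 10.35 with TNC + TLR4i, a change of 1.11 (SE 0.08, 2.16-fold, adjusted p = 6.4e-05). Txnrd1, the reductase that recharges thioredoxin, read 10.18, 10.08 and 10.18 untreated and 11.11, 11.04 and 11.02 with TNC + TLR4i, a change of 0.91 (SE 0.06, adjusted p = 6.12e-05). In all 3 genes the groups were separated by several times the spread within either group. Probe sets of one gene differed in size but not in sign. The 4 for Srxn1 ranged from 0.25 to 1.18 and the 3 for Txnrd1 from 0.48 to 0.91, while both for Gclm gave 1.11.

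To show what these 3 genes carry at their starts, their promoters were searched for the core of the antioxidant response element, TGACNNNGC, on both strands. The windows run from 250 bases before the RefSeq start to 50 after it, in build GRCm38.p6, and are printed 5′ to 3′ along the gene with the match in capitals. The window of Srxn1 is chr2:152105274-152105573 (plus strand), that of Gclm chr3:122245307-122245606 (plus strand), and that of Txnrd1, the one of its 3 listed starts that holds a match, chr10:82858956-82859255 (plus strand). In each the match reads on the opposite strand, so the capitals show its reverse complement. These are the called Nrf2 targets whose window held a match, so a match in each was fixed by the choice. Of the other called targets, Osgin1 had no match and Gsr had no RefSeq promoter to search. The match in Srxn1 lies after the RefSeq start.
Srxn1: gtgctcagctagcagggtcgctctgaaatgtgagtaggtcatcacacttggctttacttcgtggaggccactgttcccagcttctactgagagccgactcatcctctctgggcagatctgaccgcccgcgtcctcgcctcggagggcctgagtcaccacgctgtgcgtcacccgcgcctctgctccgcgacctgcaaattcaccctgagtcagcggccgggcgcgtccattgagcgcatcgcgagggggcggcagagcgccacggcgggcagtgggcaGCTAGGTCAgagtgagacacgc
Gclm: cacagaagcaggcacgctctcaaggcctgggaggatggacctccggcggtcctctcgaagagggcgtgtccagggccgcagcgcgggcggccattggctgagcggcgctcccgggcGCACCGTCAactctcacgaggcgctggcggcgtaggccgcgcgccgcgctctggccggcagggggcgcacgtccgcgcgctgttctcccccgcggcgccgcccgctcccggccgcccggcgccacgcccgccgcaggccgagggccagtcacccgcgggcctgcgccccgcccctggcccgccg
Txnrd1: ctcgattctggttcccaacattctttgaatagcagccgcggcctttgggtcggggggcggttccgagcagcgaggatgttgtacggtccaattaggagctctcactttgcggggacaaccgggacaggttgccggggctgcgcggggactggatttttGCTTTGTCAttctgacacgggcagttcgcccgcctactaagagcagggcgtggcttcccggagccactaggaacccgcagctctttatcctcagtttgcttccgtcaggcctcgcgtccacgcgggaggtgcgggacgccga
The same letters stood in the windows of 10 of the 30 Nrf2 targets with a RefSeq promoter (33.3%) and in 13.99% of the promoters of all 27025 genes in the RefSeq table, or 16.15% (2334 of 14452) of the array genes that have one there. A match is a description of the sequence and not a mapped binding site, and distal elements lie outside these windows.

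Within the list the calls lay in a few branches. The thioredoxin branch held 2 called genes of 3 measured, with a median change of 0.91, and the glutathione branch 2 of 12, with a median of 0.13. Gsr, glutathione reductase, was the second of these and rose by 0.63 (SE 0.08, adjusted p = 0.0036), from 8.99 to 9.23 untreated to 9.68 to 9.83. The group of iron, export and adaptor genes held the fifth call, Osgin1, an oxidative-stress-induced growth inhibitor. It read 7.92, 8.04 and 7.99 untreated and 8.71, 8.53 and 8.56 with TNC + TLR4i, a change of 0.62 (SE 0.07, adjusted p = 0.00222). No gene of the quinone and haem branch (10 measured, median 0.25) or of the NADPH branch (4 measured, median 0.26) reached the fold.

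Below 1.5-fold, several further Nrf2 targets passed the adjusted p. Cbr3, a carbonyl reductase, rose by 0.57 (adjusted p = 0.00253), and Gclc, the catalytic partner of Gclm, by 0.54 (adjusted p = 0.00522). Sqstm1, the p62 autophagy adaptor that binds Keap1, rose by 0.53, the export pump Abcc1 by 0.49 and the biliverdin reductase Blvrb by 0.48. Some of the best known targets moved less. Hmox1, haem oxygenase, read 10.06, 10.18 and 10.15 untreated and 10.61, 10.46 and 10.43 with TNC + TLR4i, a rise of 0.37 (adjusted p = 0.0368). Nqo1, the quinone reductase used most often as an Nrf2 readout, had a change of 0.24 (95% CI 0.10 to 0.39) that did not pass (adjusted p = 0.223), at 6.65 to 6.79 untreated and 6.91 to 7.02 with TNC + TLR4i, close to the array median. Slc7a11, the cystine transporter, had a change of 0.13 (95% CI -0.08 to 0.34) and the ferritin gene Fth1 one of 0.04 (95% CI -0.09 to 0.18). Hmox1, Nqo1, Slc7a11 and Fth1 were picked out after their values were seen.

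The regulators stood differently. Mafg, a small Maf partner of Nrf2 and itself inducible, rose by 0.42 (adjusted p = 0.0285) from 9.46, 9.61 and 9.74 to 9.97, 10.03 and 10.06. The mRNA of Nfe2l2, which encodes Nrf2, had a change of -0.16 (95% CI -0.30 to -0.01, adjusted p = 0.556), and that of Keap1 one of 0.09 (95% CI -0.04 to 0.23). Bach1, the repressor that competes with Nrf2, had a change of -0.00. Nrf2 itself is controlled mainly as a protein, which arrays do not measure. The other stress programmes held no called gene. The amino acid stress list around Atf4 had none called of 23 and a median of 0.17, with Asns at 0.43 (adjusted p = 0.101). Of the 23, 19 lay above 0, beside 9866 of 18193 over all genes, and 1 was higher by adjusted p alone. At limma's unadjusted p under 0.05, 12 were higher, beside 879 of 18193. The unfolded protein response (20 genes, median 0.03), heat shock (14, median 0.01) and proteasome (27, median 0.09) lists had none called. Of the 27 proteasome genes 25 lay above 0.

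**Figure D2:**
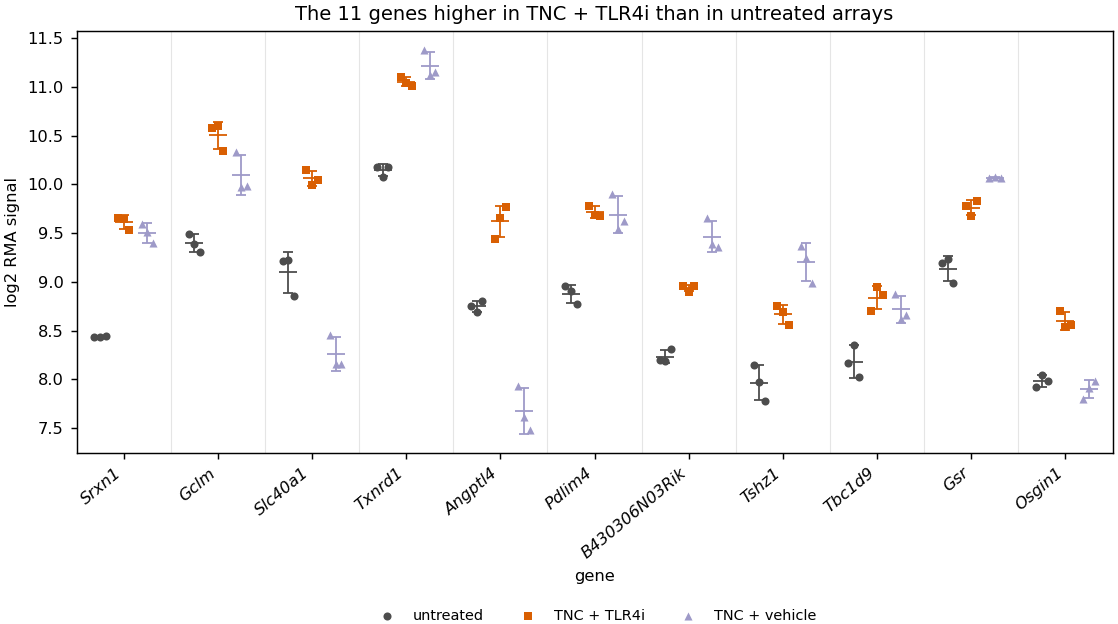
Log2 RMA expression of the 11 genes called higher, by gene, in the untreated, TNC + TLR4i and TNC + vehicle arrays (points are arrays, bars mean ± SD, n = 3). TNC + TLR4i values lie above every untreated value in each gene, while TNC + vehicle values lie near them for Srxn1 and Pdlim4 and below the untreated values for Slc40a1 and Angptl4.

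The TNC + vehicle arrays show which of these rises were also present without the inhibitor. That comparison uses the same untreated arrays, so its values are set side by side and the difference was tested directly between the 2 TNC groups. Srxn1 was at 9.50 ± 0.10 (SD, n = 3) with TNC + vehicle, and TNC + TLR4i exceeded it by 0.11 (adjusted p = 0.341). Txnrd1 was at 11.22 ± 0.14, with a direct difference of -0.17 (adjusted p = 0.173). Pdlim4, a cytoskeletal adaptor outside the Nrf2 list, read 8.77 to 8.95 untreated, 9.68 to 9.78 with TNC + TLR4i and 9.69 ± 0.19 with TNC + vehicle, a direct difference of 0.02 (adjusted p = 0.895). For these 3 genes a difference between the TNC groups was not detected. Gclm was at 10.09 ± 0.20 with TNC + vehicle, between the other groups, and TNC + TLR4i was higher by 0.41 (adjusted p = 0.012). Osgin1 was at 7.90 ± 0.09, level with the untreated arrays, and TNC + TLR4i was higher by 0.70 (adjusted p = 2.67e-05). Gsr ran the other way, at 10.07 with TNC + vehicle and 0.31 lower with TNC + TLR4i (adjusted p = 0.0056).

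Among the other called rises were genes that differed in opposite directions from untreated in the 2 TNC groups. Slc40a1 encodes ferroportin, the exporter that releases iron from macrophages and is itself a known Nrf2 target. It read 9.21, 9.23 and 8.86 untreated and 10.15, 10.00 and 10.05 with TNC + TLR4i, a rise of 0.97 (SE 0.09, 1.96-fold, adjusted p = 0.000914). With TNC + vehicle it was at 8.26 ± 0.17, 0.84 below untreated and 1.81 below TNC + TLR4i (adjusted p = 2.75e-08). Angptl4 encodes a secreted inhibitor of lipoprotein lipase and is a target of PPAR nuclear receptors. It read 8.75, 8.69 and 8.80 untreated and 9.44, 9.65 and 9.77 with TNC + TLR4i, a rise of 0.87 (SE 0.08, adjusted p = 0.000747), and 7.68 ± 0.23 with TNC + vehicle, 1.95 below TNC + TLR4i (adjusted p = 1.21e-07). Its other probe set gave a change of 0.06, so the rise of Angptl4 rests on one of 2, and with probe sets averaged it was 0.47, under the fold. On a list of 12 iron handling genes Slc40a1 was the one called, the phagosomal metal transporter Slc11a1 passed by adjusted p alone (0.43, adjusted p = 0.0135), and the median was -0.07. The remaining 3 called rises were Tshz1, a zinc finger factor (0.70), Tbc1d9, a Rab GTPase regulator (0.66), and B430306N03Rik (0.71). With probe sets averaged, Tshz1 (0.57) and Tbc1d9 (0.47) also fell under 1.5-fold. Tshz1 and B430306N03Rik were higher still with TNC + vehicle, by 0.53 each over TNC + TLR4i (adjusted p = 0.00142 and 0.000551).

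Angptl4 belonged to a list of lipid uptake and storage genes of which 1 of 19 was called higher and 4 were higher by adjusted p alone, with none lower and a median of 0.23. Over all genes 0.0605% were called higher and 0.297% were higher by adjusted p alone. Cd36, the scavenger receptor that takes up fatty acids and oxidised lipoprotein, read 11.53, 11.58 and 11.57 untreated and 12.06, 12.06 and 12.14 with TNC + TLR4i, a rise of 0.53 (adjusted p = 0.0028). Lipa, the lysosomal acid lipase, rose by 0.42 (adjusted p = 0.00837) and Plin2, the coat of lipid droplets, by 0.37 (adjusted p = 0.0239). In all 3 genes each inhibitor array lay above every untreated array, while 15.2% of all genes had groups that did not overlap, in either direction. With TNC + vehicle the means of Cd36, Lipa and Plin2 were 11.33, 12.09 and 12.24. For Cd36 that was a difference from untreated of -0.23, and of -0.10 without TNC + vehicle replicate 1 (adjusted p = 0.356), so no fall of Cd36 was shown there. The direct differences between TNC + TLR4i and TNC + vehicle, 0.76, 0.92 and 1.13, passed the test (adjusted p = 0.000112, 3.03e-05 and 5.57e-07). Genes of sterol synthesis did not reach the fold or the adjusted p: none of 21 was called, with a median of 0.12 and a highest change of 0.32. Of the 21, 20 lay above 0, beside 9866 of 18193 over all genes. Among genes of cholesterol efflux 1 of 11 passed by adjusted p alone, with a median of 0.16.

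**Figure D3:**
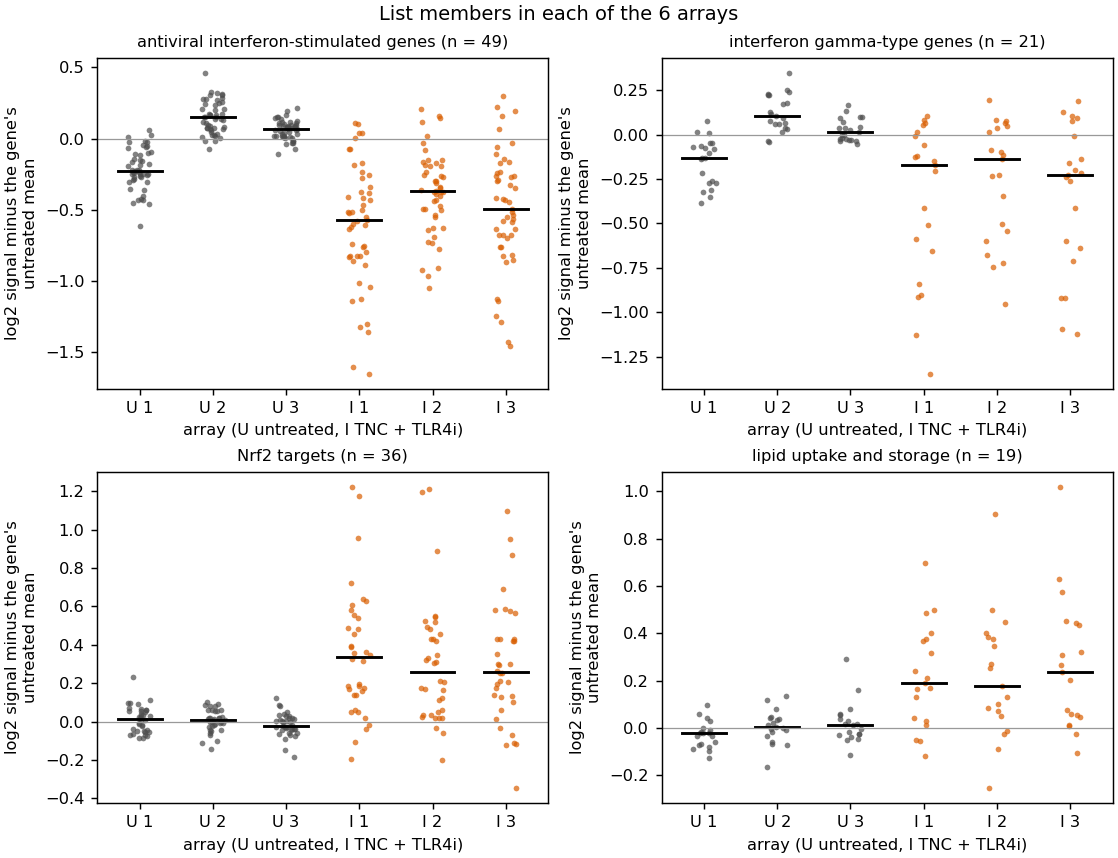
For 4 gene lists, each point is one gene in one array, as its log2 difference from that gene's untreated mean (y axis), for untreated arrays U1 to U3 and TNC + TLR4i arrays I1 to I3 (x axis), and black bars are medians. Medians of the antiviral list fall from between -0.23 and 0.15 in the untreated arrays to between -0.57 and -0.37, and those of the Nrf2 list are 0.26 to 0.33 in the TNC + TLR4i arrays.

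The falls were mostly interferon-induced genes. Type I interferons signal through the receptor Ifnar1 and Ifnar2 and the kinases Jak1 and Tyk2 to transcription factors that bind interferon-stimulated response elements. Macrophages in culture keep a low tonic interferon signal, and engagement of TLR4 raises it through the adaptor Trif and the factor Irf3. Of the 36 genes called lower, 22 were on the lists of interferon-induced genes. On the antiviral list 18 of 49 were called lower and none higher, beside 0.198% called lower over all genes. By adjusted p alone 25 were lower, beside 0.506% over all genes. The median of that list was -0.45, against 0.01 over all genes, and 44 of the 49 lay below 0, against 45.8%. The interferon lists too were chosen with earlier results of these data known, and their counts are a description.

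Ifit2, whose product binds RNA and restrains viral translation, had the largest fall. It read 10.52, 11.59 and 11.28 untreated and 9.48, 10.09 and 9.84 with TNC + TLR4i, a change of -1.33 (SE 0.21, 2.51-fold, adjusted p = 0.0142). Its relative Ifit1 read 9.88, 10.64 and 10.43 untreated and 8.71, 9.39 and 8.89 with TNC + TLR4i, a change of -1.32 (SE 0.18, adjusted p = 0.00595). Rsad2, viperin, which makes a chain-terminating nucleotide, read 10.69, 11.45 and 11.27 untreated and 9.78, 10.23 and 9.68 with TNC + TLR4i, a change of -1.24 (SE 0.17, adjusted p = 0.00595). In each gene untreated replicate 1 was the lowest untreated array and still lay above all 3 inhibitor arrays. Cmpk2, a nucleotide kinase next to Rsad2 in the genome, fell by 1.14, Ifit3 by 1.09 and Usp18, the protease that removes Isg15 and dampens the interferon receptor, by 1.00.

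The promoters of these genes were searched for GAAANNGAA, the core of an interferon-stimulated response element, in the same windows and on both strands. Those shown are the 3 with the largest called falls among antiviral genes whose window held a match: Ifit1 at chr19:34640639-34640938 (plus strand), Rsad2 at chr12:26456403-26456702 (minus strand) and Ifit3 at chr19:34583279-34583578 (plus strand). Capitals mark the matches, which again read on the opposite strand, and 2 of those in Ifit1 overlap.
Ifit1: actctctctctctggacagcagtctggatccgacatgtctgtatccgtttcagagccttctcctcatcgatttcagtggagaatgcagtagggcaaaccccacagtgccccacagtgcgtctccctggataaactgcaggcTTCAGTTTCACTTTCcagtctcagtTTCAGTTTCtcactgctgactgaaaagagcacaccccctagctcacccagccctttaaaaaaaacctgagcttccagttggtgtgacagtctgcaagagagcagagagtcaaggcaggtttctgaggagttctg
Rsad2: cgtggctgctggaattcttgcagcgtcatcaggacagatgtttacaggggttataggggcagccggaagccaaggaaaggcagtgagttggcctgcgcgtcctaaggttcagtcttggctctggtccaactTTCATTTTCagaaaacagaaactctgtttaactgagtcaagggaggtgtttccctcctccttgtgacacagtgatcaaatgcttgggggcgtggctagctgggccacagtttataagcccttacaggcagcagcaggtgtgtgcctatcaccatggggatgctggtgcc
Ifit3: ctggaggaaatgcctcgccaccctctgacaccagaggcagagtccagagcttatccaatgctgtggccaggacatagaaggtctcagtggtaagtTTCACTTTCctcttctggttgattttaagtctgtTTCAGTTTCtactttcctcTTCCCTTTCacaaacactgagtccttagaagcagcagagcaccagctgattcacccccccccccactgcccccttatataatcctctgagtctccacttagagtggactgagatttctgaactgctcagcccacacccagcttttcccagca
Ifit1 and Ifit3 held 3 matches each and Rsad2 held 1, while these letters were not in the window of Ifit2. The motif stood in 17 of 37 antiviral genes with a RefSeq promoter (45.9%), in 15 of 27 genes called lower (55.6%), in 9.76% of all promoters and in 8.70% of those of genes on the array. The gamma-activated site TTCNNNGAA stood in 4 of 16 genes of the interferon gamma-type list (25%), in 9.55% of all promoters and in 8.57% of those of genes on the array. It also stood in 9 of 37 antiviral genes (24.3%), and GAAANNGAA in 9 of 16 gamma-type genes (56.25%). Neither motif was particular to 1 of the lists.

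Over all genes 0.198% were called lower. By role, the antiviral effectors held most of the falls, with 14 of 32 called and a median of -0.53. Among them Mx1, a gene of an interferon-inducible GTPase family, fell by 0.85 (adjusted p = 0.0068), and Ifi204, a DNA-binding member of the interferon-inducible p200 family, fell by 0.83. Of 5 nucleic acid sensors 1 was called, Dhx58, a helicase that tunes RNA sensing (-0.78, adjusted p = 0.00392). Of 7 genes for conjugation of ubiquitin-like proteins and ADP-ribosylation 2 were called, Herc6, the mouse ligase for Isg15 (-0.67), and Parp14 (-0.66), both named after their values were seen. With probe sets averaged, Dhx58 (-0.49), Herc6 (-0.55) and Parp14 (-0.55) passed the adjusted p but not the fold. Of 5 transcription factors and brakes only Usp18 was called. Irf7, the master amplifier of interferon production, was chosen after its values were seen: it read 10.58, 11.11 and 10.80 untreated and 10.87, 10.97 and 11.05 with TNC + TLR4i, with overlapping groups and a change of 0.14.

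A second interferon list holds genes that respond most to interferon gamma. The guanylate-binding proteins and immunity-related GTPases, which attack the vacuoles of intracellular microbes, had 4 of 10 called lower and a median of -0.68. Over all genes 0.198% were called lower. Iigp1 read 8.70, 9.20 and 9.01 untreated and 7.62, 8.02 and 7.85 with TNC + TLR4i, a change of -1.14 (SE 0.12, 2.20-fold, adjusted p = 0.00148). Gbp3 (-0.92), Igtp (-0.85) and Gbp7 (-0.81) were the other 3. None of 11 class I antigen processing genes was called, and their median was -0.02. The interferon genes and their receptor were not called. Ifnb1 read 6.35, 6.45 and 6.31 untreated and 6.31, 6.30 and 6.31 with TNC + TLR4i, below the array median in both groups, with a change of -0.06 (95% CI -0.20 to 0.08). Of 16 interferon signalling genes 1 passed by adjusted p alone, Ikbke, a kinase that activates Irf3 (-0.46, adjusted p = 0.015), and the list median was -0.06.

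**Figure D4:**
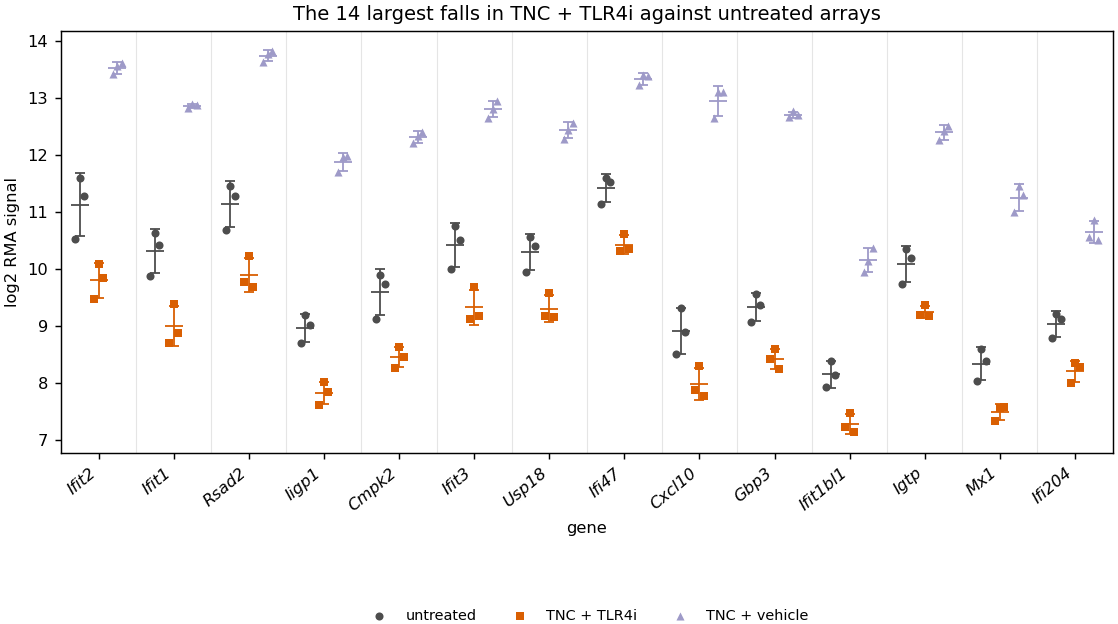
Log2 RMA expression of the 14 genes with the largest called falls in the untreated, TNC + TLR4i and TNC + vehicle arrays (points are arrays, bars mean ± SD, n = 3). In each the TNC + TLR4i values lie below every untreated value and the TNC + vehicle values above, and untreated replicate 1 is the lowest of its group.

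These falls below the untreated level stood beside rises with TNC + vehicle, and the ratio of the sizes varied by gene. Rtp4, chosen after its values were seen, had a change of -0.59 with TNC + TLR4i and 0.53 with TNC + vehicle, and Ifi44l had -0.80 and 1.06. Both falls leaned on single arrays. With 1 array left out, Rtp4 kept its call in 2 of 6 fits and Ifi44l in 3 of 6. Limma's adjusted p reached 0.182 and 0.104 there. With probe sets averaged, Ifi44l was -0.52, under the fold. Ifit1 was at 12.86 ± 0.04 with TNC + vehicle, 2.55 above untreated, and the TNC groups differed by -3.87 (adjusted p = 1.5e-09). Rsad2 was at 13.74 ± 0.10, 2.60 above untreated, with a direct difference of -3.84 (adjusted p = 6.54e-10). Iigp1 was at 11.88 ± 0.16, 2.91 above untreated, with a direct difference of -4.05 (adjusted p = 1.47e-10). Over all genes, TNC + vehicle against untreated gave 680 higher (3.74%) and 736 lower (4.05%), and 714 and 829 without TNC + vehicle replicate 1.

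The number of falls depended on single arrays more than the number of rises did. Untreated replicate 1 lay below the untreated mean in 46 of 49 antiviral genes, with a median of -0.23, while the medians of the other untreated arrays were 0.15 and 0.07. The TNC + TLR4i medians were -0.57, -0.37 and -0.49. Without untreated replicate 1 the genes called lower numbered 51, of which 23 were antiviral. Without untreated replicate 3 they numbered 20 (8 antiviral), without TNC + TLR4i replicate 1 21 (8 antiviral) and without TNC + TLR4i replicate 3 23 (9 antiviral). The gamma-type calls were 8 of 21 without untreated replicate 1 and 6 without TNC + TLR4i replicate 2. Iigp1, Ifit1, Rsad2, Cmpk2, Usp18, Ifi47, Gbp3 and Gbp7 stayed called whichever of the 6 arrays was left out, and so did Srxn1, Gclm, Txnrd1, Slc40a1, Angptl4, Pdlim4, B430306N03Rik and Tshz1 among the rises. Ifit2 and Ifit3 lost the call without untreated replicate 3 or without TNC + TLR4i replicate 1 or 3, at adjusted p of 0.0651 to 0.0881 for Ifit2, whose change stayed between -1.35 and -1.17. Igtp lost it without TNC + TLR4i replicate 1 (adjusted p = 0.052). The choice of variance model mattered for the largest falls. With trend and robust variances, Ifit2 (adjusted p = 0.387), Ifit3 (0.358), Ifit1 (0.285), Rsad2 (0.282), Cmpk2 (0.213) and Usp18 (0.208) lost the call at the same log2 changes, as did Igtp (0.0875), while Iigp1, Ifi47, Gbp3 and Gbp7 stayed called. Among the rises, Gsr and Tbc1d9 fell just short of 1.5-fold without untreated replicate 3 (0.55 and 0.58), and Osgin1 without untreated replicate 1 (0.58) or TNC + TLR4i replicate 1 (0.56), each still past the adjusted p.

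Outside the interferon lists 14 genes were called lower. Several of them belong to interferon-inducible families of which the lists held other members, so the count of 14 depends on which members were listed. Ifi47, an immunity-related GTPase, read 11.13, 11.59 and 11.52 untreated and 10.32, 10.62 and 10.35 with TNC + TLR4i (-0.98, adjusted p = 0.0024), and Ifit1bl1, a relative of Ifit1, fell by 0.87. Another 3 were chemokines. Cxcl10, which draws activated T cells and is itself interferon-inducible, read 8.51, 9.32 and 8.90 untreated and 7.88, 8.31 and 7.78 with TNC + TLR4i, a change of -0.92 (SE 0.17, adjusted p = 0.0324). Ccl12, a monocyte attractant, read 6.70, 7.05 and 7.19 untreated and 6.39, 6.30 and 6.27 with TNC + TLR4i (-0.66, adjusted p = 0.0121), so the inhibitor arrays lay under the array median. Cxcl5, a neutrophil attractant, read 8.69, 8.91 and 8.85 untreated and 8.44, 8.03 and 7.74 with TNC + TLR4i (-0.75, adjusted p = 0.0263). Unlike Cxcl10 and Ccl12, which TNC + vehicle raised, Cxcl5 was at 8.19 ± 0.28 with TNC + vehicle, 0.62 below untreated, and the TNC groups differed by -0.13 (adjusted p = 0.666), or by 0.03 without TNC + vehicle replicate 1. These 3 calls leaned on single arrays. Cxcl10 kept its call only without untreated replicate 1 or TNC + TLR4i replicate 2 and had adjusted p of 0.0726 to 0.175 otherwise, and Ccl12 lost it without untreated replicate 3 (adjusted p = 0.0502) or TNC + TLR4i replicate 3 (0.071). Cxcl5 and Adgre4, a macrophage adhesion receptor (-0.67, adjusted p = 0.0441), kept theirs only without TNC + TLR4i replicate 1, with adjusted p up to 0.112 and 0.232 otherwise. Fgl2, a prothrombinase of activated macrophages, fell by 0.80 (adjusted p = 0.00534) and Ifitm6 by 0.65 (adjusted p = 0.00212). Adgre4, Fgl2 and Ifitm6 were picked out after their values were seen.

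The classical products of TLR4 stimulation were near the untreated level. Tnf read 7.60, 7.62 and 7.43 untreated and 7.53, 7.43 and 7.35 with TNC + TLR4i, a change of -0.12 (95% CI -0.28 to 0.04, adjusted p = 0.756). Il1b had a change of -0.34 (95% CI -0.59 to -0.10, adjusted p = 0.383), Il6 one of -0.19 (95% CI -0.34 to -0.04, adjusted p = 0.453) and Nos2, the inducible nitric oxide synthase, one of 0.09 (95% CI -0.07 to 0.24, adjusted p = 0.83). These intervals leave room for changes of up to 0.59 downward in Il1b and do not show equality. Il6 and Nos2 were among the dim probe sets, with means below the median probe set, so a fall had less room to show. No inflammatory cytokine of 22 was called, and, beside 0.506% of all genes, 3 were lower by adjusted p alone. The largest of these was Il10, the anti-inflammatory cytokine, at 7.12, 7.25 and 7.33 untreated and 6.70, 6.59 and 6.70 with TNC + TLR4i (-0.57, adjusted p = 0.00392). Tnfsf10, TRAIL, an interferon-inducible death ligand, fell by 0.46 and Ebi3, the shared subunit of interleukins 27 and 35, by 0.41.

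No difference was detected in the receptor itself. Tlr4 read 11.31, 11.34 and 11.22 untreated and 11.26, 11.35 and 11.31 with TNC + TLR4i, a change of 0.02 (95% CI -0.12 to 0.16), and its co-receptor Ly96 had a change of 0.04 (95% CI -0.10 to 0.18). Cd14, which hands lipopolysaccharide to TLR4, had a change of -0.14 (95% CI -0.27 to -0.00, adjusted p = 0.592). Tnc mRNA, which the added protein would not contribute to, had a change of 0.00 (95% CI -0.22 to 0.23). Of 25 genes of the Toll-like receptor pathway, 1 passed by adjusted p alone: Tlr1, the partner of TLR2 for lipopeptides, at 9.59, 9.37 and 9.40 untreated and 8.98, 9.06 and 9.02 with TNC + TLR4i (-0.43, adjusted p = 0.0165). None of 23 genes of NF-κB and its feedback was called and the list median was -0.07.

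Changes under 1.5-fold that passed the adjusted p included surface receptors of macrophages. Cxcr4, the receptor for Cxcl12, read 11.67, 11.75 and 11.76 untreated and 12.23, 12.22 and 12.28 with TNC + TLR4i, a rise of 0.52 (adjusted p = 0.00311), while it was at 10.47 ± 0.35 with TNC + vehicle, 1.77 lower than with TNC + TLR4i (adjusted p = 1.05e-06). Ccr2, the monocyte receptor for Ccl2 and a macrophage marker, went from 10.82, 10.79 and 10.73 to 10.26, 10.47 and 10.32 (-0.43, adjusted p = 0.0154). The summed log2 level of the 11 macrophage markers was 126.8 to 127.3 untreated and 125.0 to 125.9 with TNC + TLR4i, and Ccr2 was the one that passed by adjusted p. Klrk1, on the list of natural killer cell markers, fell by 0.43 (adjusted p = 0.0342) at 6.88 to 6.97 untreated, near the array median, and the other 7 markers of that list did not pass. With TNC + vehicle Klrk1 was 2.06 above untreated, and the TNC groups differed by -2.49 (adjusted p = 2.1e-08). It was the 1 of the 8 measured markers of that list called higher with TNC + vehicle. The part of natural killer cells in the interferon result was not tested.

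Several large programmes of the macrophage held no called gene. Class II antigen presentation had none of 12 called with a median of -0.23, and none passed by adjusted p alone. Of the 12, however, 10 lay below 0 (45.8% over all genes). At limma's unadjusted p under 0.05, 7 were lower, beside 842 of 18193 over all genes. Glycolysis and hypoxia (23 genes, median -0.00), the cell cycle (33, median 0.01), lysosomal genes (17, median 0.03) and the respiratory chain (17, median -0.01) also had none called and none past the adjusted p.

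**Figure D5:**
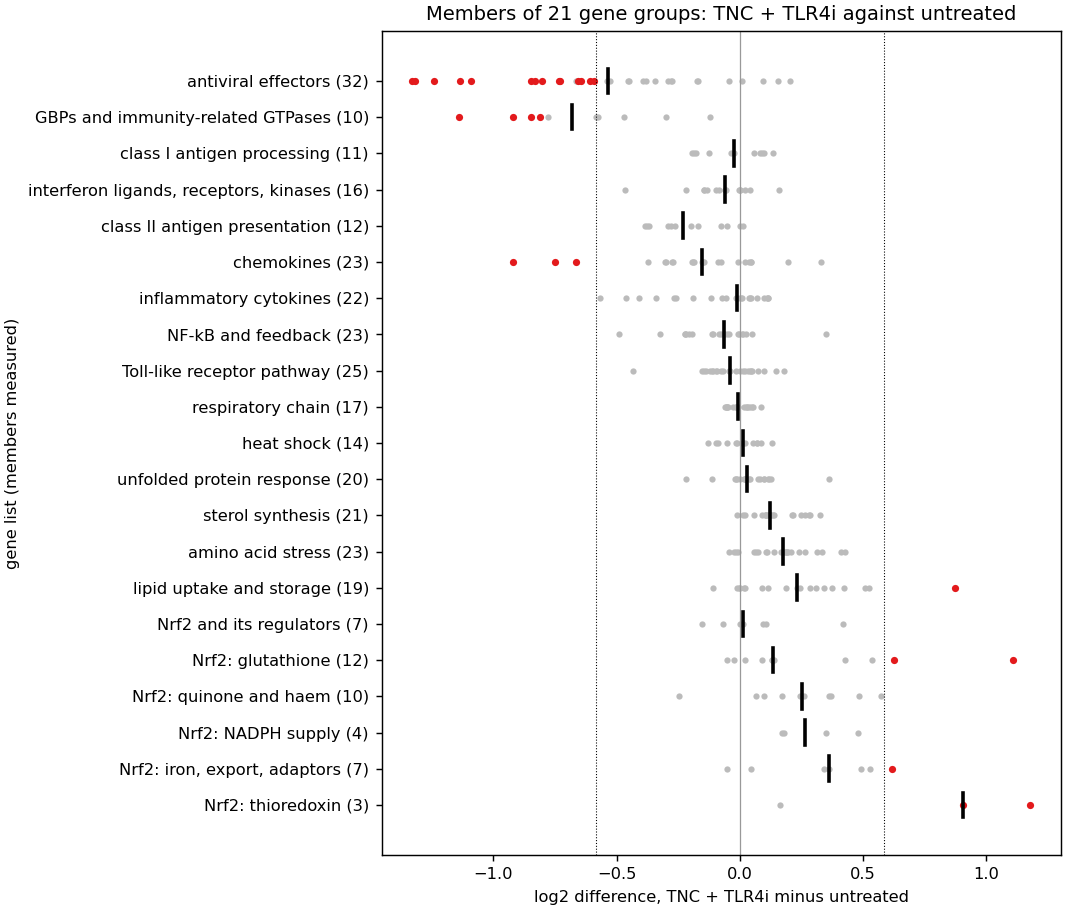
Log2 change (TNC + TLR4i minus untreated, x axis) of each measured member of 21 gene groups (y axis), with called genes in red and a bar at the median. Called members gather in the Nrf2 groups on the right (thioredoxin median 0.91) and in the antiviral effectors and guanylate-binding proteins on the left (medians -0.53 and -0.68).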

How the data were processed

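RNA of 9 mouse macrophage cultures was measured on Affymetrix 3′ expression arrays, 3 arrays in each of 3 groups. The authors normalised the scans by RMA (background correction, quantile normalisation across arrays and summary per probe set) and deposited log2 values for 45101 probe sets. Quantile normalisation gives every array the same distribution, so a shift of most genes in one direction cannot be seen, and the number of arrays limits the precision. Groups were taken from the sample labels.

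The 64 control probe sets were left out, and 34945 of the others were named from the platform annotation by 1 gene symbol, 932 by several (not named) and 9160 by none. Where several probe sets named a gene (9010 of 18193 genes), the one brightest on average in the 9 arrays stood for it. The TNC + TLR4i and untreated arrays were compared with lmFit and eBayes in limma 3.58.1 (R 4.3.3), two-sided, with Benjamini-Hochberg adjustment over 45037 probe sets. TNC + vehicle was compared with untreated, and with TNC + TLR4i, in the same way. Intervals are limma's 95% intervals. Gene lists are described by counts and medians, with no set test. Members and lists were chosen with earlier results of these data known. Genes are named when they are activation markers or TLR4 genes, among the 15 largest called rises or falls, or among the largest changes of a list. Others are marked where they appear, except Csf1r, Lyz2, Col1a2 and Ifnb1, which were named outside these rules. Alternatives covered the samples fitted, a replicate block, dim probe sets, scaling, the variance model, the summary of probe sets, thresholds and leaving out arrays; leaving out TNC + vehicle replicate 1 was added after its values were seen. The procedure was tested on simulated data.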

Additional observations from a re-analysis of the deposited data

How the results depend on the processing

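With 3 arrays a group the median standard error of a log2 change was 0.07, and the design did not separate TNC, inhibitor and solvent. The genes called higher numbered 11 and those called lower 36, with 5 Nrf2 targets, 18 antiviral and 4 gamma-type interferon genes. Leaving out one of the 6 arrays gave 10 to 15 higher, 20 to 51 lower, 4 to 7 Nrf2 targets, 8 to 23 antiviral and 4 to 8 gamma-type genes, and kept 28 to 44 of the 47 calls. Trend and robust variances gave 20 lower and 7 antiviral genes, averaging probe sets 23 and 11, and an adjusted p under 0.01 22 and 9. The genes lost under trend and robust variances include Ifit1, Ifit2, Ifit3, Rsad2, Cmpk2 and Usp18. Cyclic loess gave 6 gamma-type genes and kept all 47 calls. With no minimum fold 54 were higher and 92 lower, with 15 Nrf2 targets. At a minimum of 2-fold 2 were higher and 6 lower, of which 2 were Nrf2 targets, 5 antiviral and 1 gamma-type. Limma's treat test against 1.5-fold gave 1 higher, which was the 1 Nrf2 target, and 0 lower, 0 antiviral and 0 gamma-type genes, beside 1721 genes at an unadjusted p under 0.05 against no change. All 9 arrays in 1 fit, median centring and leaving out dim probe sets gave 11 higher and 32 to 36 lower. The correlation of deviations of same-numbered arrays was 0.05, -0.10 and -0.04, and not every TNC + TLR4i array correlated best with the untreated array of its number, so the numbers were not taken as pairs. In the antiviral list, however, the array medians had the same order of numbers in both groups. The replicate block gave 11 higher and 40 lower, kept all 47 calls and lowered the adjusted p of Ifit1 to 0.000175 and of Ifit2 to 0.000323. Uncalled genes near 0 changed sign: Tnc was -0.0023 with cyclic loess, -0.086 with probe sets averaged and -0.13 to 0.12 with one array left out, Tlr4 -0.016 to 0.045 and Ly96 -0.0020 to 0.067 with one array left out. The cause of these differences was not tested.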

Other observations

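Other genes that passed limma's adjusted p below 1.5-fold were picked out here after their values were seen. Ahr, the receptor for dioxin-like ligands, read 9.19, 8.93 and 9.13 untreated and 8.66, 8.49 and 8.55 with TNC + TLR4i, a fall of 0.52 (adjusted p = 0.0102). Gadd45a, a DNA damage and stress response gene, read 8.51, 8.47 and 8.46 untreated and 9.06, 8.99 and 9.14 with TNC + TLR4i, a change of 0.58 (adjusted p = 0.00221). Ptgs2, the inducible cyclooxygenase, rose by 0.40 (adjusted p = 0.0239) and Atf3, a stress-induced transcription factor on the amino acid stress list, by 0.41 (adjusted p = 0.0305). Casp4, the caspase that senses intracellular lipopolysaccharide, fell by 0.45 (adjusted p = 0.011), and Ltb, lymphotoxin beta, by 0.48 (adjusted p = 0.0105).

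The study followed 4 niche factor genes in endothelial cells of lung metastasis, a different cell type. In these macrophages none passed: Scgb3a1 had a change of -0.22 (adjusted p = 0.253), Inhbb of -0.15, Tnfrsf11b of -0.02 and Lama1 of 0.04. Their untreated means were low, 6.04 to 7.36, with 2 of the 4 above the array median.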
